A study of Mus musculus with 125 samples.

Results

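Endothelial cells of the adult mouse cerebral cortex were picked out of 1 single-cell RNA library by a rule on their own transcripts. A barcode was kept if it had at least 200 genes, at most 10% of its counts on mitochondrial genes, at least 1 UMI (a counted molecule) for 3 or more of Cdh5, Pecam1, Egfl7, Esam, Tie1 and Kdr, and no UMI of Tyrobp, Epcam or Pdgfrb. Of 5552 barcodes in the library, 2850 (51.3%) met the rule, out of 42340 single-cell barcodes in the whole series. The filters on gene number and mitochondrial share left 3671 barcodes, of which 3154 had 3 or more of the 6 genes. Of these, 304 were then removed, 271 with a UMI of Pdgfrb, 45 with a UMI of Tyrobp and none with one of Epcam, some of them for both reasons.

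The study followed brain endothelial cells from embryo to adult with single-cell RNA sequencing and set them beside open chromatin of endothelial nuclei from several organs. The adult library came from cortex of mice 2 months old and the P8 library from cortex at postnatal day 8, each dissociated with the same kit and enriched with magnetic beads against CD31, the protein made from Pecam1. The E12.5 and E9.5 libraries came from embryonic brain dissociated with collagenase before the same beads, so their values stand beside the others with no comparison. Neither the strain nor any genetic change of the mice used for single cells is given in the labels, nor is the number of mice in each library. Open chromatin was measured by ATAC-seq, which cuts accessible DNA, in nuclei of adult mice given tamoxifen 7 days before collection to turn on GFP in vessels. That assay has 2 preparations labelled endothelial for each of brain, retina, heart, kidney, liver and lung, and 1 of whole-brain nuclei labelled input. The Cre line behind the reporter is not given in the sources used here.

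Endothelial cells of brain capillaries form the blood-brain barrier. They are sealed to each other by tight junctions, carry little across in vesicles, and let nutrients pass through dedicated transporters while pumping many drugs back into blood. Wnt ligands from neural cells act on them through Frizzled receptors and beta-catenin and maintain this state, and the cells grade in identity along the vessel from artery through capillary to vein.

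Promoters of 3 listed genes for transporters, transcytosis and junctions are shown, because their levels and the open chromatin over them are described below. They are the 3 most abundant with an entry in the promoter table used here and an ATAC peak at the start in both adult brain endothelial preparations. A brain peak at each was thus a condition of the choice. Each window runs from 250 bases before to 50 bases after the annotated start (RefSeq, build GRCm38.p6), 5′ to 3′ on the gene's own strand. Capitals mark matches to the motifs searched on both strands, which were GGAAGT (an ETS core), ACAATG (SOX), CTTTGA (TCF/LEF), TGTTTNC (FOX), CCAAT and TATAAA, none of them overlapping another here.
Slc2a1, chr4:119108495-119108794, plus strand: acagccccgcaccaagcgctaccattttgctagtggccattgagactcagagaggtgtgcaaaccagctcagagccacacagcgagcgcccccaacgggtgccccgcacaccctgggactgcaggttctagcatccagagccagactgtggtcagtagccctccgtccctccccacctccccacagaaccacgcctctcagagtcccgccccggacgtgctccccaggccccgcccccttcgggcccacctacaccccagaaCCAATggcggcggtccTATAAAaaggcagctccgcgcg
Cldn5, chr16:18776597-18776896, plus strand: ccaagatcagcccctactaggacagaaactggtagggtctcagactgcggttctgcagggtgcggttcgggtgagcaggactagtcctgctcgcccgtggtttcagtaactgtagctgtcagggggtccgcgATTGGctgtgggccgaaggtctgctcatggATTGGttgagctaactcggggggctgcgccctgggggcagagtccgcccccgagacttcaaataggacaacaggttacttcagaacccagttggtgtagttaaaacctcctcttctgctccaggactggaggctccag
Slco1a4, chr6:141856171-141856470, minus strand: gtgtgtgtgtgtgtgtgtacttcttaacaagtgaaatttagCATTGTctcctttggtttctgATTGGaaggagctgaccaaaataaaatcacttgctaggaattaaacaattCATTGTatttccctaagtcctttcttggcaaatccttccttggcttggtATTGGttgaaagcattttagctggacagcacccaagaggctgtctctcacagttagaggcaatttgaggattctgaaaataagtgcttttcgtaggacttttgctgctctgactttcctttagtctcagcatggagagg
In the Slc2a1 window, CCAAT begins at base 263 and TATAAA at base 279, which is 28 bases after the annotated start. The Cldn5 window holds the reverse complement of CCAAT at bases 133 and 163. The Slco1a4 window holds CATTGT, the reverse complement of the SOX motif, at bases 42 and 113, and the reverse complement of CCAAT at bases 63 and 162. Of 20041 promoters of this length, 25.1% hold the ETS motif, 10.5% SOX, 14.3% TCF/LEF, 17.9% FOX, 37.9% CCAAT and 12.1% TATAAA. GC content was 65.3% for Slc2a1, 58.3% for Cldn5 and 40.7% for Slco1a4.

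The 2850 adult cells held 18395667 UMIs, with a median of 4690 a cell (range 513 to 63878) and 2055 genes. Cells picked by the same rule numbered 4318 at P8 (median 8030 UMIs), 5302 at E12.5 (10020) and 5183 at E9.5 (7003). The adult library shared 8 barcodes with the P8 library, 2 with E12.5 and 31 with E9.5; 4, 1 and 6 of these were adult cells of the set. Ribosomal protein genes took 10.3% of UMIs in the adult cells and 15.8% at P8, and Malat1, a nuclear noncoding RNA, took 4.45% and 1.76%. Levels below are summed UMIs of a gene over all summed UMIs of the cells, on the usual CPM scale. Since this assay counts 3′ ends, CPM is not scaled by transcript length. Intervals are exact 95% Poisson intervals for levels and exact binomial ones for shares of cells. They cover counting error only, since 1 library has no replicate, and no test of a condition was possible.

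The 6 genes of the rule were present as the rule requires and are given as a description. Egfl7 stood at 1014 CPM, Esam at 823, Pecam1 at 550, Cdh5 at 371, Kdr at 346 and Tie1 at 167. All 6 genes had a UMI in 1064 cells that passed the first 2 filters, and exactly 3 had one in 282. At the edge of the rule, the 270 cells inside with exactly 3 of the genes had a median of 2839 UMIs and Cldn5 at 4659 CPM, while 136 barcodes outside with 2 of them had 1024 UMIs and Cldn5 at 2918 CPM. Cells with a mitochondrial share of 9 to 10% had Cldn5 at 3967 CPM (79 cells), and barcodes just past 10% had 3504 (51 barcodes).

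Genes of other cell types were present in some of these cells. The 5 erythroid genes, mostly hemoglobin, were the most abundant, at a summed 8375 CPM against 16059 at P8, with 253 cells (8.88%) holding 3 or more of them, and the 5 lymphatic endothelial genes reached 151 CPM. Of the other lists, 10 pericyte genes reached 212 CPM (Rgs5 at 163; Pdgfrb at 0 by the rule), 6 smooth muscle genes 154 (Mylk 123, Acta2 14.2, Cnn1 at 0), 8 astrocyte genes 185 (Mfge8 68.8, Aqp4 0.326) and 8 oligodendrocyte genes 93.5. The 6 neuron genes summed to 6.85 CPM and 10 microglia genes to 49.6. Of the 2850 cells, 139 (4.88%) had 2 or more genes, each at 2 UMIs or more, of a pericyte, smooth muscle, astrocyte, oligodendrocyte, neuron, microglia, macrophage, fibroblast or leukocyte list, against 557 of 4318 (12.9%) at P8. Erythroid and lymphatic lists were not part of that count. It was made on cells that were deeper at P8 (median 8030 UMIs against 4690), so the shares are not compared. Summed levels at P8 were 100 CPM for pericyte genes, 16.4 for smooth muscle, 200 for astrocyte and 25.2 for oligodendrocyte genes. Neuron genes summed to 3.99 CPM at P8 and microglia genes to 70.1. The part of such transcripts in the values below was not tested beyond the repeats without the cells of that count.

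The adult cells were rich in transcripts of barrier transport. Slc2a1, the glucose transporter GLUT1, stood at 5525 CPM (5491 to 5559) and had a UMI in 99.5% of cells. The taurine carrier Slc6a6 followed at 2041 CPM, then the large neutral amino acid transporter Slc7a5 at 777, its partner chain Slc3a2 at 760, the cationic amino acid carrier Slc7a1 at 725 and the lactate and ketone carrier Slc16a1 at 384. Of the 12 nutrient carriers listed, 11 were at 20 CPM or more, and 9 had a UMI in over 50% of cells. In 40 microglia-like barcodes of the same library (median 1079 UMIs, against 4690), 17.5% had a UMI of Slc2a1, at 71.7 CPM. These barcodes held no UMI of any endothelial gene of the rule. Barcodes without those transcripts may also hold less stray endothelial RNA. Their values for endothelial genes may thus understate the background level in cells that should lack them, and are given as a description. No UMI of Slc16a1 was found in these barcodes, and Slc7a5 and Slc7a1 stood at 20.5 CPM each. Other carriers were higher there: Slc6a6 at 266 CPM, Slc3a2 at 328 and the iron exporter Slc40a1 at 1259, above its 188 in the endothelial cells, and the whole list summed to 1987 CPM against 11170.

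Efflux pumps and organic anion carriers were also abundant. Slco1a4, a carrier of bile acids and steroid conjugates, stood at 1900 CPM with a UMI in 98.1% of cells (7.5% of the microglia-like barcodes), and the thyroid hormone carrier Slco1c1 at 1842. The drug pumps Abcg2 (breast cancer resistance protein) and Abcb1a (P-glycoprotein) stood at 1212 and 1169 CPM, with Abcb1a detected in 96.5% of cells and 2.5% of the microglia-like barcodes. The organic anion transporter Slc22a8 was at 378 CPM and Abcc4 at 235. Abcc1 was at 4.08 CPM.

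Of 12 tight junction genes outside the rule, 9 were at 20 CPM or more. Cldn5, the main claudin of brain endothelium, stood at 4883 CPM (4851 to 4915) in 99.6% of cells. Esam, a gene of the rule, was at 823, the scaffold Tjp1 (ZO-1) at 660, Ocln at 317, Jam2 at 310, Lsr at 306 and F11r at 136. Cgn, which encodes cingulin, had no UMI, which allows up to 0.163 CPM (3 UMIs), while its paralogue Cgnl1 was at 228 CPM. Plvap, which forms the diaphragms of leaky vessels, was at 3.21 CPM and was found in 0.175% of cells. The lipid transporter Mfsd2a, which restrains vesicular transport, was at 443 CPM. Caveolar coat genes were present with it: Cavin2 at 832 CPM, Cavin1 at 339 and Cav1 at 261. The transferrin receptor Tfrc was at 513 CPM and the antibody receptor Fcgrt at 471.

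Wnt pathway genes were detected from receptor to target. Ctnnb1 (beta-catenin) stood at 637 CPM, the receptor Fzd4 at 249, Fzd6 at 142, the co-receptor Lrp6 at 117, Adgra2 (Gpr124) at 81.2, the co-receptor subunit Tspan12 at 64.2 and Reck at 53.8. Of the targets and effectors, Lef1 was at 583 CPM, Axin2 at 130, Nkd1 at 130, Tnfrsf19 at 99.9, Tcf7 at 87.7 and Ppard at 71.6. Transcription factors were led by the flow-responsive Klf2 at 1951 CPM, the hypoxia factor Epas1 at 1493, Klf4 at 868, Foxq1 at 604, Sox17 at 587 and Foxp1 at 511. Foxl2 was at 0.924 CPM.

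Genes among the 20 most abundant, ribosomal and mitochondrial genes aside, were Malat1 at 44494 CPM, Bsg at 10405, Tmsb4x at 7548, Itm2a at 4458, Ly6c1 at 4394, Flt1 at 3768, Ly6a at 3642, Pltp at 3103, Sptbn1 at 2746, Sparc at 2689, Spock2 at 2541 and Cxcl12 at 2413. Bsg encodes basigin, a partner chain of lactate carriers, and Flt1 a VEGF receptor that can act as a decoy. Actb (4588), Tpt1 (4360) and Eef1a1 (2603) are widely expressed. Hbb-bs (5015) and Hba-a1 (3043) encode hemoglobin. Hbb-bs had a UMI in 82.4% of these cells and 90% of the microglia-like barcodes, so its share of cells is no more than background.

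**Figure D1:**
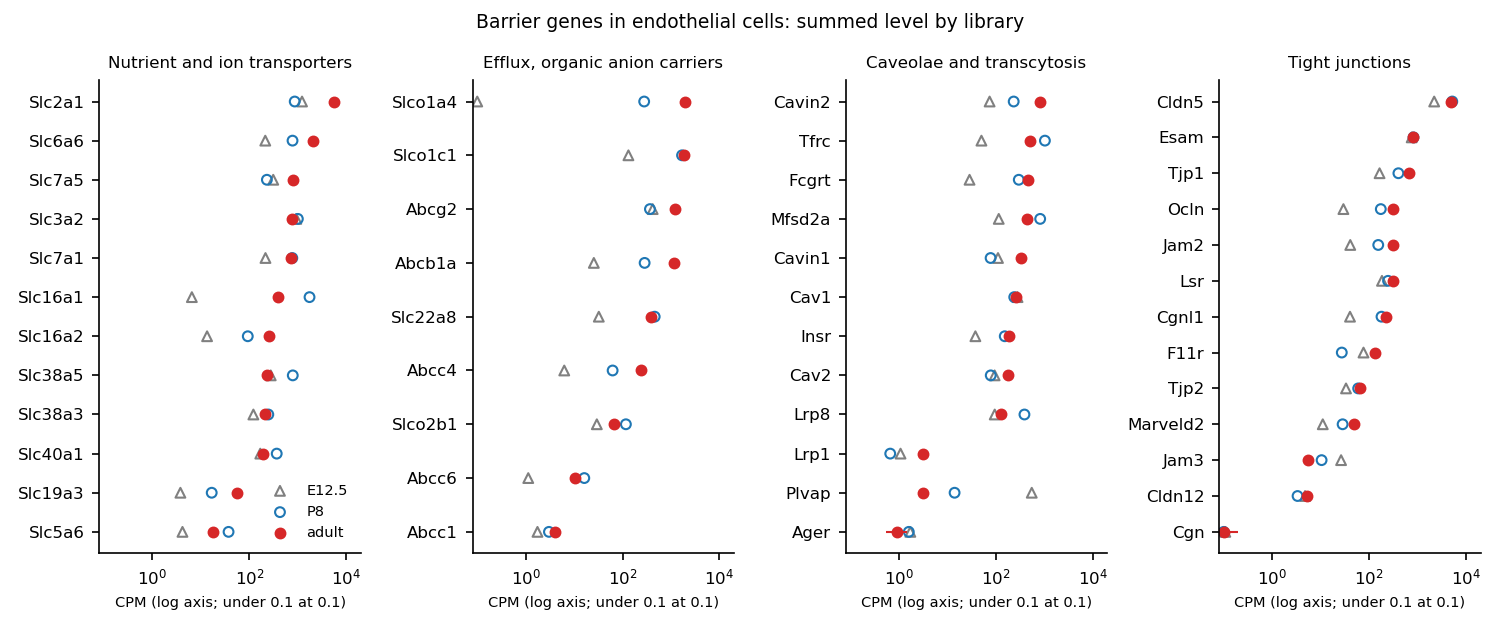
Level (CPM, log axis) of each listed barrier gene in endothelial cells of the adult (filled red), P8 (open blue) and E12.5 (grey triangle) libraries; bars are adult Poisson intervals and values under 0.1 are drawn at 0.1. Slco1a4 stands at 1900 CPM in the adult cells and 279 at P8, whereas Slc16a1 stands at 384 and 1745, and Cldn5 at 4883 and 5228.

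Adult and P8 cells were compared to see which genes of mature cortex endothelium differ from those of the growing vasculature. A gene counted as higher or lower where CPM differed by 2-fold or more, among genes with at least 20 CPM in either library; 900 of 6751 genes (13.3%) were higher in the adult cells and 699 (10.4%) were lower. Both ages have 1 library, so age and library cannot be told apart. The median log2 ratio over these genes was 0.06. With ribosomal protein, mitochondrial and hemoglobin genes and Malat1 left out of the totals, more genes, 7494, reached 20 CPM in either library. Of these, 874 (11.7%) were higher and 895 (11.9%) lower. Some counts are also given within ranges of cells, called arterial-marker, neither and venous-marker and defined further on. Over all genes that did not define those ranges, 8.78% were at least 2-fold higher in adult than P8 cells within the arterial-marker range, 13.3% within neither and 13.3% within the venous-marker range, and 8.01%, 10.8% and 11.3% were at least 2-fold lower. Of 99 ribosomal protein genes compared, 27 were lower in the adult cells and 1 was higher.

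Transporters differed from each other in direction. Of 12 nutrient carriers, 5 were higher in the adult cells and 3 lower, with a median ratio of 0.892. Slc2a1 stood at 278 CPM at E9.5, 1222 at E12.5, 863 at P8 and 5525 in the adult cells, and the adult level was 6.4 times that at P8 (6.33 to 6.48). Slc6a6 stood at 778 CPM at P8 and 2041 in the adult cells, and Slc7a5 at 230 and 777. Between P8 and adult Slc16a1 ran the other way, at 1745 CPM and 384, and was 4.54-fold lower in the adult cells (4.44 to 4.66). At E9.5 and E12.5 it stood at 16.7 and 6.5 CPM, values given with no comparison. It was detected in 94.7% of P8 cells and 65.6% of adult cells. The glutamine carrier Slc38a5 was also lower, at 787 CPM at P8 and 233 in the adult cells. Slc3a2 and Slc7a1 stayed within 2-fold.

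Among 7 efflux and organic anion carriers, 4 were higher in the adult cells and none lower, with a median ratio of 3.3. Slco1a4 was listed at 0 at E9.5, 0.0773 CPM at E12.5, 279 at P8 and 1900 in the adult cells, a 6.8-fold difference between the last pair (6.67 to 6.94). Abcb1a stood at 0.39, 25.5, 285 and 1169 CPM in the same order, 4.11-fold higher in adult than at P8. Abcg2 was 3.3-fold and Abcc4 3.77-fold higher. Slco1c1, at 1842 CPM, was near its P8 level of 1687, and so was Slc22a8, at 378 and 460.

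Junction genes mostly stayed within 2-fold of P8. Over all cells F11r, which encodes the adhesion molecule JAM-A, was the 1 gene of 10 compared that was 2-fold higher or more, at 27.4 CPM at P8 and 136 in the adult cells. Cldn5 stood at 599 CPM at E9.5, 2213 at E12.5, 5228 at P8 and 4883 in the adult cells, and Esam at 829 at P8 and 823 in adult. Within ranges 1 of 10 was higher in arterial-marker cells, 3 in neither and 3 in venous-marker cells, with Jam2 at ratios of 1.69, 2.32 and 2.29. The 10 include Esam, a gene of the rule, at ratios of 0.725, 1.05 and 1.11. In the pairs of levels given next in parentheses, P8 comes first and adult second. Of 9 genes of caveolae and transcytosis, 3 were higher (Cavin1, 78.1 to 339 CPM; Cavin2, 234 to 832; and Cav2) and 2 were lower (Tfrc, 1032 to 513; Lrp8, a lipoprotein receptor, 390 to 129). Mfsd2a stood at 824 CPM at P8 and 443 in the adult cells, inside the 2-fold limit. Within the ranges described below the balance differed: in arterial-marker cells 1 of 10 genes was higher and 4 were lower, with Cavin2 at a ratio of 1.98, Cav2 at 1.08, Tfrc at 0.364 and Mfsd2a at 0.315. In neither and venous-marker cells 3 of 9 were higher and 1 was lower, and Tfrc was at 0.583 and 0.724.

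Of 8 Wnt receptor genes, 5 were higher in the adult cells and none was lower. Fzd4 stood at 68.3 CPM at P8 and 249 in the adult cells, Reck at 8.63 and 53.8, Lrp5 at 6.39 and 30.3, Adgra2 at 37.8 and 81.2, and Lrp6 at 57 and 117. In arterial-marker cells 3 of the 8 passed, with Adgra2 at 1.61 and Lrp6 at 1.41. Of 10 targets and effectors, Lef1 (192 to 583 CPM) and Axin2 (35.2 to 130) were higher. The other 8 stayed within 2-fold, with a median ratio of 1.04 over the list. In arterial-marker cells 2 of 9 were higher and 2 lower, Apcdd1 at 0.271 and Tnfrsf19 at 0.459. In neither cells 2 of 9 were higher, in venous-marker cells 3 of 10 with Tcf7l1 at 2.09, and none was lower in either. Among 20 transcription factors, Epas1 (429 to 1493), Klf4 (254 to 868) and Sox17 (248 to 587) were higher and Bcl6b (50.8 to 19.7) was lower. In arterial-marker cells Klf4 alone of these passed, with Epas1 at 1.75, Sox17 at 1.08 and Bcl6b at 0.861. There 1 of 20 was higher and 1 lower, the latter being Sox7 at 0.375.

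All 14 cell cycle genes compared were lower, with a median ratio of 0.0183, and Mki67 stood at 67.6 CPM at P8 and 0.326 in the adult cells. None of the list, at 0 of 15, reached 20 CPM in the adult cells. Each was thus compared through its P8 level and could not be called higher. After each cell was thinned to 2000 UMIs, none of 2680 adult cells had UMIs of 3 or more of the 15 cell cycle genes, which allows a share of up to 0.112% (3 cells of 2680; the exact binomial upper limit is 0.138%). At P8, 243 of 4223 cells did (5.75%; 5.07 to 6.5). Of 9 tip cell and angiogenesis genes, 6 were lower and none higher. Only 3 of the 9 reached 20 CPM in the adult cells. The rest were compared through their P8 level and could not be called higher. Apln, the apelin ligand of sprouting vessels, was at 28.6 CPM at E9.5, 146 at E12.5, 312 at P8 and 0.326 in the adult cells, where 6 UMIs were counted, a difference of 882-fold (439 to 2604). Its receptor Aplnr was at 263 CPM at P8 and 10.4 in the adult cells. Pdgfb, the ligand that holds pericytes to vessels, stood at 132 and 256.

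Basement membrane genes were lower in 8 of 13 cases and higher in 2 (Lamb2 and Lama5). Within the ranges described below Lama5 was under 2-fold in each, at 1.68, 1.95 and 1.91, and Lamb2 was at 1.33 in arterial-marker cells. The collagens Col4a1 and Col4a2 stood at 977 and 840 CPM at P8 and at 400 and 270 in the adult cells. Lamb1 stood at 112 and 1.03, Nid1 at 246 and 27.4, and Lama4 at 207 and 42. Lamb2, another laminin beta chain, was at 72.6 CPM at P8 and 173 in the adult cells. The matrix protein Sparc stayed within 2-fold, at 3897 and 2689.

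Of 20 growth factor, BMP and Notch genes, 8 were higher in the adult cells and 1 was lower. The lower gene was Kdr, the main signalling VEGF receptor, which the rule used to pick the cells and which is given as a description, at 945 CPM at P8 and 346 in the adult cells. Flt1 was at 1258 and 3768. Higher genes of the BMP branch were the receptor Acvrl1 (132 to 579 CPM), Bmpr2 (254 to 736), Smad6 (8.46 to 48.5), Smad7 (132 to 291) and the target Id1 (570 to 1684). Within arterial-marker cells Smad7 (1.01), Id1 (1.27), Bmpr2 (1.92), Flt1 (1.7), Notch4 (1.76) and Jag2 (1.49) were under 2-fold. Eng, a co-receptor, stayed at 609 and 629. Notch4 (35.3 to 100 CPM) and the ligand Jag2 (33.2 to 88.7) were also higher. Igf1r, which stands in another list, was at 364 and 1150 CPM.

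Antigen presentation and interferon genes were higher in the adult cells for 14 of 16, and none was lower, with a median ratio of 4.21. H2-D1, an MHC class I chain, was at 781 CPM at P8 and 1648 in the adult cells, but its adult over P8 ratio was 1.96, 1.39 and 1.71 within the arterial-marker, neither and venous-marker ranges described below, under 2-fold in each. Ifitm3 stood at 487 and 1095 CPM, with ratios of 1.33, 2.38 and 1.49 within the ranges. Other members were Isg15 at 13.1 and 187, and Ifit3 at 0.487 and 27.7. The surface proteins Ly6a (397 to 3642 CPM) and Ly6c1 (885 to 4394) stand in the same list. Microglia-like barcodes of the adult library held this list at a summed 15124 CPM, beside 14285 in the endothelial cells. Class II genes were near 0, with H2-Aa at 0.87 CPM.

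Genes that follow glucocorticoids, metals or the daily clock were higher in 10 of 11 cases, with a median ratio of 5.94. The metallothioneins Mt1 and Mt2 stood at 36.7 and 8.73 CPM at P8 and 854 and 197 in the adult cells. Fkbp5, a glucocorticoid-induced chaperone, was at 5.92 and 78.6, Tsc22d3 at 141 and 648, and the clock output gene Dbp at 36.3 and 154. The hour of collection is not given in the sources used here, and its part in these values was not tested. Sgk1 stayed within 2-fold, at 108 and 140.

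Of 16 immediate early and stress genes, 6 were higher, led by the heat shock gene Hspa1a (141 to 751 CPM), Ier3 (90.1 to 373) and Hspa1b (78.8 to 316). Egr1 and Atf3 were lower within some of the ranges described below, with adult over P8 ratios of 0.23 and 0.373 in the neither cells and 0.217 and 0.255 in venous-marker cells. Fos stood at 503 CPM at P8 and 715 in the adult cells, within 2-fold, and its adult over P8 ratio was 1.04, 0.664 and 0.71 within the arterial-marker, neither and venous-marker ranges. Fos had a UMI in 28.6% of adult cells and in 47.5% of the adult microglia-like barcodes, at 1638 CPM. Those barcodes held the whole list at 12615 CPM, against 7182 in the endothelial cells, so they give no measure of free RNA for these genes and the share of cells with Fos is not read. Of 11 glycolysis genes, only Pfkp differed by 2-fold, at 78.1 CPM at P8 and 16.7 in the adult cells. Within arterial-marker cells Pfkp was at a ratio of 0.605 and Gapdh at 2.02, so that 1 of 12 was higher and none lower there. In neither and venous-marker cells none of 11 was higher and 1 was lower, with Pfkp at 0.0984 and 0.11. The 15 imprinted and fetal growth genes summed to 704 CPM at P8 and 1507 in the adult cells. Nearly all of that difference came from Igf1r, whose levels are given above, so the sums do not describe the list as a whole. Of 4 compared, 1, Igf1r, was higher and 1 was lower. In the adult cells 3 of the 15 had no UMI, H19 and Dlk1 among them. At E12.5 H19 stood at 1330 CPM, a value given with no comparison.

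The largest ratios named other genes. Xdh, which encodes xanthine oxidoreductase, had 3633 UMIs in the adult cells (197 CPM) and 4 at P8 (0.0779 CPM), a ratio of 2253 with a counting interval of 989 to 9305. Microglia-like barcodes of the adult library held 61.4 CPM of it, in 10% of 40. Fmo2, a monooxygenase, was at 495 CPM against 1.62, and the transcription factor Zbtb16 at 307 against 3.76. The stress gene Ndrg1 was at 930 CPM against 17.2, Itih5 at 1068 against 23.7, Alpl (alkaline phosphatase) at 120 against 3.04, Fam107a at 276 against 9.53 and Aldh1a1 at 113 against 4.21. Mt1 and Mt2 came next, followed by Cp (ceruloplasmin), Mgp, Paqr5, Clu and Tinagl1 with ratios between 20 and 21.5. These ratios pool all cells. Within the arterial-marker, neither and venous-marker ranges described below they were 8.52, 4.14 and 1.6 for Clu and 6.91, 6.69 and 16.8 for Mgp. Ratios of other genes also differed between the ranges. Ndrg1 was at 9.82, 159 and 60.3, Alpl at 9.95, 216 and 93.1, and Fmo2 at 123, 850 and 304. Mt1 was at 5.48, 32.1 and 39.5, and Cp at 15.4, 8.28 and 14.8.

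On the other side, Fscn1, an actin bundler of cell protrusions, was at 199 CPM at P8 and 0.707 in the adult cells. The histone gene Hist1h1b was at 105 and 0.435, and the amino acid carrier Slc1a4 at 115 and 1.9. Htra3 stood at 259 CPM at P8 and 8.37 in the adult cells, the integrin chain Itga4 at 107 and 4.62, Meox1 at 163 and 10.3, the polyamine enzyme Odc1 at 160 and 14.3, and Sox4 at 253 and 24.4. Wdr89 (194 and 5.27), Lxn (159 and 8.86) and Sema6d (249 and 23.8) completed the group with Apln, Lamb1 and Aplnr. Rpl6l was at 169 and 7.34, but it is a near copy of another ribosomal protein gene and its reads may be shared, so its value is uncertain.

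**Figure D2:**
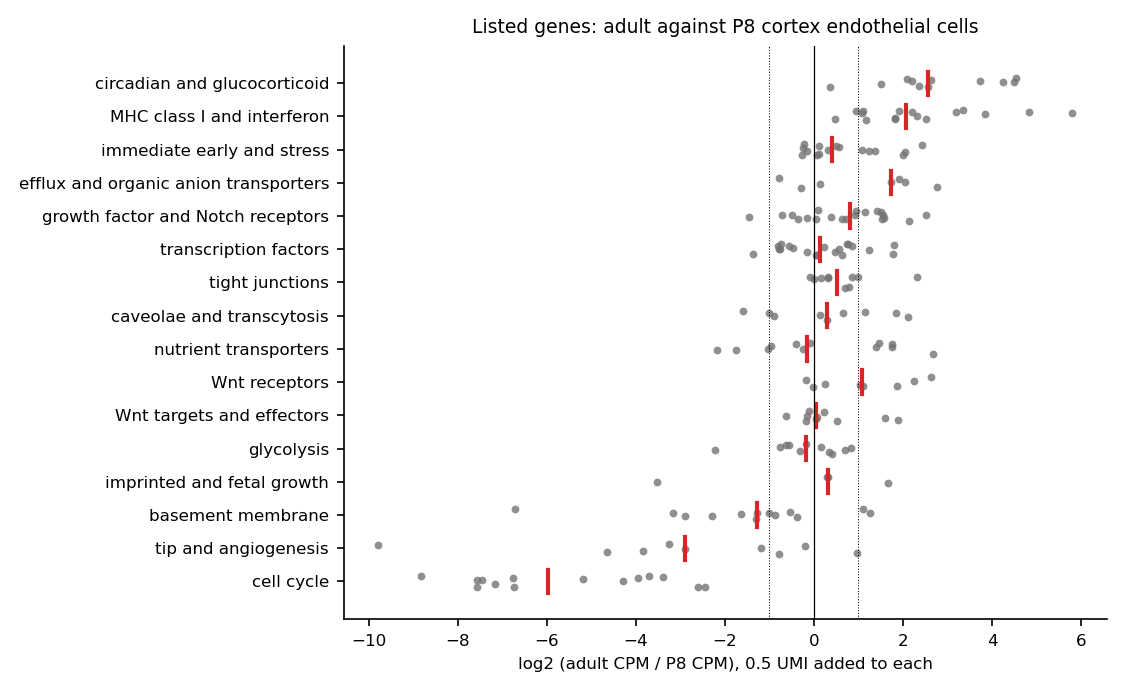
Log2 of the adult over P8 level for each listed gene with at least 20 CPM in either library (points), with the list's median (red bar) and dotted lines at 2-fold. Cell cycle genes all lie left of the lower line (median ratio 0.0183), and most circadian and glucocorticoid genes lie right of the upper line (median ratio 5.94). No cell cycle gene reached 20 CPM in the adult cells, so each was compared through its P8 level.

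Variation between cells of the adult library was measured as the squared coefficient of variation beyond counting noise, with each cell's depth accounted for. Of 6842 genes with at least 0.1 UMI a cell, 885 (12.9%) reached 0.5. All 14 arterial, all 11 venous and all 16 immediate early genes that could be measured did so, as did 11 of 17 MHC and interferon genes, 7 of 10 capillary genes and 5 of 12 nutrient carriers. None of 10 tight junction genes did, or of 9 without Esam, whose spread the rule partly fixes. Slc2a1 had a value of 0.123 and Cldn5 of 0.106, against a median of 0.124 over all measured genes.

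The highest values belonged to genes concentrated in a few cells. Fabp4, a fatty acid carrier, had a value of 633 and was found in 29 cells, 1 of which held 48.7% of its UMIs. Ptgds reached 119, Apod 54.5, the pericyte gene Vtn 52.7, Myl9 43.8 and the myelin gene Mbp 26.6. Hemoglobin and heme genes followed: Hbb-bt at 60.9, Alas2 at 50, Hbb-bs at 41.2, Hba-a1 at 33.6 and Hba-a2 at 32.4. Vessel genes in this group were the arterial Cytl1 (40), Fbln5 (22.9) and Pi16 (32.5), together with Ccl21a (30.6) and S100a6 (19.5). The stress factor Atf3 reached 32.2 with 50% of its UMIs in 15 cells, and the interferon gene Rsad2 reached 17.

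Many of the variable genes also varied at P8. Of 6623 genes measurable in both libraries, 315 reached 0.5 in both, which is 41.8% of the adult variable genes and 63.8% of those at P8, where 7.46% of all measurable genes did at P8 and 11.4% in the adult cells. Across these genes, the Spearman correlation of the 2 libraries' values was 0.586, as a description over genes, which are not independent replicates and share each cell's depth. Of the 100 most variable genes in each library, 45 were shared. Cytl1 reached 751 at P8 at a mean of 0.0134 UMI a cell, too low to be read.

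**Figure D3:**
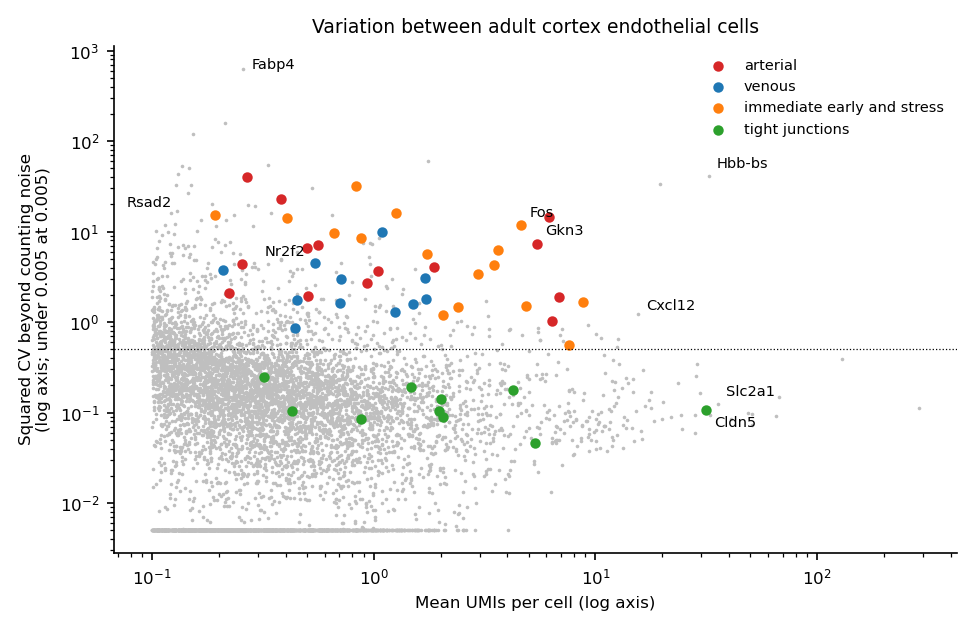
Squared coefficient of variation beyond counting noise (log axis) against mean UMIs per adult cell (log axis) for genes with at least 0.1 UMI a cell; the dotted line is 0.5 and values under 0.005 are drawn at 0.005. All arterial (red), venous (blue) and immediate early (orange) genes lie above the line and all tight junction genes (green) below it; Hbb-bs reaches 41.2 and Cldn5 0.106.

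To see what goes with vessel identity, cells were thinned to 2000 UMIs and cut by 15 arterial and 15 venous genes. A cell was called arterial-marker where at least 3 arterial genes had a UMI and more of them than of the venous genes, and venous-marker in the reverse case. Of 2680 cells deep enough (170 were left out), 791 (29.5%; 27.8 to 31.3) were arterial-marker, 557 (20.8%; 19.3 to 22.4) venous-marker and 1332 (49.7%) neither. These are ranges of a score and not cell types, and their sizes depend on the cut. Without Crip1 and Tm4sf1 the arterial-marker share was 17.9%. The venous-marker share was 12.8% with at least 4 genes required, 9.31% at 1000 UMIs and 34.6% without thinning, and with at least 2 genes it was 31.7%. Close to the cut, 599 cells had exactly 2 arterial genes and 234 exactly 3, 559 had exactly 2 venous genes and 298 exactly 3, and 143 had 3 or more of both. Median depth before thinning was 5780 UMIs in arterial-marker cells, 4274 in neither and 6177 in venous-marker cells. Levels below are from all UMIs of those cells, for genes that the cut did not use.

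Nutrient carriers stood lower in the arterial-marker cells. Among all 6583 genes outside the cut with at least 20 CPM in a range, 335 (5.09%) were at least 2-fold higher in arterial-marker than venous-marker cells, 216 (3.28%) were at least 2-fold lower, and 205 (3.11%) were at least 2-fold higher in the neither cells than in arterial-marker cells. Of 11 nutrient carriers, 6 were at least 2-fold higher in venous-marker cells, 5 in the neither cells, and none in arterial-marker cells. Slc16a1 stood at 135 CPM in arterial-marker cells, 623 in neither and 392 in venous-marker cells. Slc7a5 stood at 322, 1157 and 836 in the same order, and Slc7a1 at 384, 976 and 824. The iron exporter Slc40a1 (78.1, 243, 255) and the glutamine carrier Slc38a3 (101, 276, 246) had the same order of arterial-marker cells below the rest. Slc2a1 did not, at 5388, 5044 and 6337 CPM, and Slc6a6 was highest in arterial-marker cells, at 2534, 1637 and 1925.

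Of 7 efflux and organic anion carriers, 2 (Slc22a8 and Slco2b1) were at least 2-fold higher in venous-marker than in arterial-marker cells, as was 1 of 9 genes of caveolae and transcytosis, Tfrc, and none was 2-fold higher in arterial-marker cells. The transferrin receptor Tfrc stood at 149 CPM in arterial-marker cells, 675 in neither and 748 in venous-marker cells, and the carbonic anhydrase Car4 at 77.8, 893 and 999. Slc22a8 stood at 186, 486 and 480. Slco1a4 was at 1302, 2298 and 2102, Abcg2 at 829, 1469 and 1371, and Abcb1a at 916, 1282 and 1335, all within 2-fold. Slco1c1 (2051, 1969, 1409), Cavin2 (1084, 722, 672) and Cav1 (337, 207, 238) were highest in arterial-marker cells, also within 2-fold. None of 10 tight junction genes, Esam of the rule among them, differed by 2-fold between arterial-marker and venous-marker cells. Cldn5 was at 5114, 4935 and 4596 CPM. Of all genes outside the cut, 5.09% were 2-fold higher and 3.28% 2-fold lower in arterial-marker cells. A count of 0 in 10 is near those shares and is not read as a trait of junction genes. Mfsd2a was highest in the neither cells, at 345, 598 and 366, and so were the capillary genes Hmcn1 (108, 581, 308) and Rgcc (309, 618, 346). The chemokine Cxcl12 was lowest in venous-marker cells, at 2827, 3400 and 577 CPM.

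Immediate early genes stood higher in the arterial-marker cells by summed level. Of 16, 10 were at least 2-fold higher there than in venous-marker cells and 1, Ier3, was at least 2-fold lower. The median number of the 16 with a UMI in a thinned cell was 4 in arterial-marker, 3 in neither and 4 in venous-marker cells. Means were 5.44, 3.98 and 4.36. Among the clusters described further on, Fos stood at 2415 CPM in cluster 4 and at 42.7 to 415 in the others. Egr1 stood at 780 CPM in cluster 4 and at 0 to 77.5 in the others. Fos stood at 1551 CPM (1520 to 1581) in arterial-marker cells, 249 in neither and 291 (277 to 306) in venous-marker cells. Egr1 stood at 473, 39.8 and 51.8, Atf3 at 317, 27.3 and 27 (15 cells held 50% of its adult UMIs), Btg2 at 1008, 302 and 272, and Junb at 1049, 263 and 362. Jun (1842, 1070, 1161) and the heat shock gene Hspa1a (951, 653, 652) differed by less. Ier3 was at 221, 419 and 504 CPM. Smooth muscle genes also stood higher there, at a summed 343 CPM in arterial-marker cells, 29.8 in neither and 77.8 in venous-marker cells, with Cnn1 at 0 in each, and so did fibroblast genes, at 37.2, 1.23 and 7.78. Without the 139 cells carrying genes of other types, the count of immediate early genes was again 10 of 16.

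Of 17 MHC class I and interferon genes, 5 were at least 2-fold higher in arterial-marker than in venous-marker cells, and none was lower. H2-D1 was at 2670 CPM in arterial-marker cells, 964 in neither and 1267 in venous-marker cells, Ifitm3 at 1847, 579 and 842, and Isg15 at 275, 158 and 117. Isg15 was found in 55% of the 258 thinned cells with a UMI of Ifit1 and in 18.7% of the others.

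Of 20 growth factor, BMP and Notch genes, 3 were at least 2-fold higher in arterial-marker cells, 2 in venous-marker cells and the other 15 in neither comparison. Smad6, an inhibitor of BMP signals, was at 104 CPM in arterial-marker cells, 18.7 in neither and 16.5 in venous-marker cells, and the Notch ligands Jag1 (138, 43.4, 45.8) and Jag2 (127, 73.1, 59) were also higher in arterial-marker cells. Sox17, an arterial factor, stood at 868, 446 and 420 CPM, and the matrix gene Col18a1 at 124, 4.17 and 0.38. Nrp2, a semaphorin and VEGF-C co-receptor of veins and lymphatics, was at 9.18, 49.8 and 160, and Kdr, a gene of the rule, at 190, 455 and 390. The 5 lymphatic endothelial genes also stood higher in venous-marker cells, at a summed 54.9, 102 and 330 CPM, of which Ccl21a gave 1.24, 17.9 and 262, while Prox1 and Lyve1 were each at 0.217 CPM over all adult cells; their part in the Nrp2 value was not tested. Of 10 Wnt targets and effectors, 3 were at least 2-fold higher in venous-marker cells (Nkd1 at 52.1, 163 and 184 CPM; Apcdd1; Tcf7l1), and Lef1 stood at 393, 689 and 679. Of 8 Wnt receptor genes, Reck alone differed by 2-fold, at 77.1, 47.2 and 32.8 CPM. Mt1 was lower in arterial-marker cells, at 489, 1133 and 969.

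Some vessel genes were found together in cells, the arterial and venous ones being genes of the cut. Of 477 thinned cells with a UMI of the arterial gene Gkn3, 54.9% had a UMI of Bmx, against 5.22% of the rest, and 1.47% had one of the venous factor Nr2f2, against 9.62%. Of 756 with Slc38a5, 15.7% had a UMI of Nr2f2 and 5.2% of the rest did. Of 1215 with Slc16a1, 69.5% had one of Car4, against 45.2%, and 7% had Gkn3, against 26.8%. These pairs come from the same cells and share their depth of 2000 UMIs.

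The same cut at P8 gave ranges whose sizes are not compared, since the genes of the cut differ in level between the libraries. For the same reason a range may hold different cells at each age, and what part this has in the ratios within ranges was not tested. Of 6554 genes there, 417 (6.36%) were at least 2-fold higher in arterial-marker than venous-marker cells and 291 (4.44%) were lower. Of 16 immediate early genes 7, and of 12 MHC and interferon genes 6, were higher in arterial-marker cells and none was lower. Smooth muscle genes summed to 52 CPM in P8 arterial-marker cells, 12.1 in neither and 12.7 in venous-marker cells, and fibroblast genes to 37.8, 2.78 and 2.09. Fos stood at 1490 CPM in arterial-marker, 376 in neither and 410 in venous-marker cells at P8, and Atf3 at 89.3, 73.4 and 106. Nutrient carriers differed: 2 of 11, Slc2a1 and Slc6a6, were at least 2-fold higher in arterial-marker cells and 1, Slc7a5, was lower. Slc16a1 was near level across the P8 ranges, at 1786, 1795 and 1667 CPM, so that its adult over P8 ratio was 0.0755 in arterial-marker cells, 0.347 in neither and 0.235 in venous-marker cells. Slc2a1 stood at 1734, 741 and 790 CPM at P8, and adult cells exceeded those by 3.11, 6.8 and 8.02 times. Slco1a4 stood at 866 CPM in arterial-marker and 239 in neither cells at P8, and its arterial-marker level was 4.95 times that of venous-marker cells. Adult cells exceeded the P8 levels of the ranges by 1.5, 9.62 and 12 times. Counted within ranges, efflux carriers at least 2-fold higher in adult than P8 cells were 1 of 7 in arterial-marker cells, 4 of 7 in neither and 4 of 7 in venous-marker cells. For MHC and interferon genes the counts were 14 of 17, 12 of 16 and 11 of 16, for circadian and glucocorticoid genes 10 of 11 in each, and none of these was lower. Of immediate early and stress genes, 6 of 16 were higher and none lower in arterial-marker cells, 4 higher and 3 lower of 15 in neither, and 4 higher and 4 lower of 16 in venous-marker cells. Of growth factor, BMP and Notch genes, 2 of 20 were higher and 2 lower in arterial-marker cells. In neither cells 7 of 19 were higher and 1 lower, and in venous-marker cells 8 of 19 were higher and 2 lower. These counts include Tie1 and Kdr, genes of the rule, whose calls are a description only. Tie1 was at ratios of 1.51, 1.79 and 2.07, and Kdr at 0.182, 0.481 and 0.426. Of nutrient carriers, 3 were higher and 3 lower of 11 in arterial-marker cells, 5 and 2 in neither, and 5 and 1 in venous-marker cells. Of basement membrane genes, none of 13, 1 of 13 and 1 of 12 were higher, and 9, 8 and 8 were lower. Mt1, at 89.1, 35.3 and 24.5 CPM at P8, was higher in arterial-marker than venous-marker cells there, opposite to the adult cells. All 15 cell cycle genes at P8 were at least 2-fold lower in arterial-marker than in venous-marker cells.

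**Figure D4:**
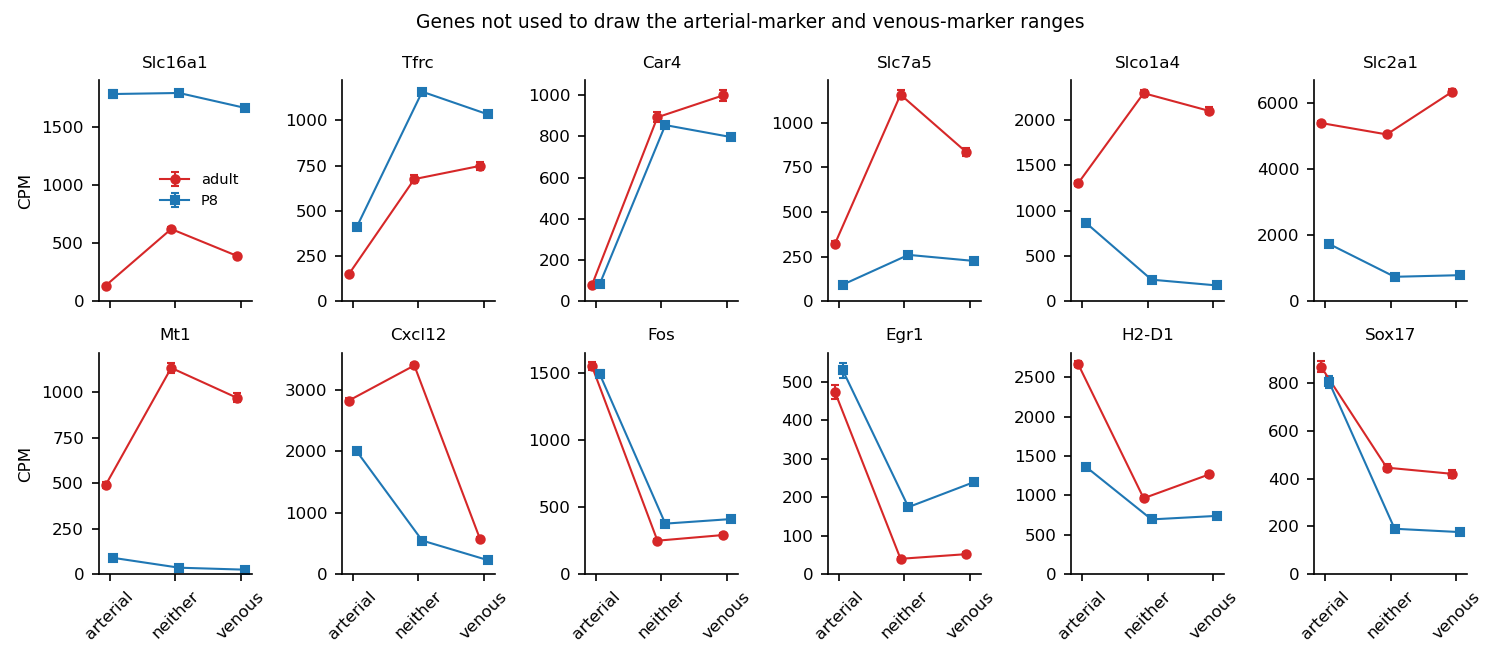
CPM of 12 genes outside the cut in arterial-marker cells, cells of neither range and venous-marker cells of the adult (red circles) and P8 (blue squares) libraries, with Poisson intervals; each panel has its own axis from 0. Slco1a4 is lowest in adult arterial-marker cells (1302 CPM) and highest in P8 arterial-marker cells (866), and Fos is highest in arterial-marker cells of both.

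Clustering described the same cells without a preset cut, and its leading genes are a description of it. There were 8 clusters at a resolution of 0.5. Cluster 1 (995 cells, 34.9%) was led by Ctla2a, Hmcn1, Ddc, Slc16a1, Car4 and Slc7a5, with 4 capillary genes among its 10 leading genes, and cluster 2 (622 cells) by Cxcl12, Cd200, Cdkn1c, Rgcc and Glul, with 2. Cluster 3 (485 cells, venous-like) was led by Ccl21a, Il1r1, Nr2f2, Slc38a5 and Vwf, and cluster 4 (329 cells, arterial-like) by Cytl1, Fbln5, Clu, Mgp, Gkn3 and Gja4, each with 6 listed genes among 10. The stress factor Atf3 was also among the leading genes of cluster 4, at 534 CPM, and smooth muscle genes summed to 514 CPM there, against 24.4 to 116 in the clusters other than 6, where they summed to 242. Median depth was 8467 UMIs in cluster 3 and 8409 in cluster 4, against 3992 in cluster 1. Cluster 5 (293 cells, median 2987 UMIs) was led by Hmcn1, Serpine2, Insr, Lrp8 and Slc7a5.

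The 3 small clusters carried other signals. Cluster 6 (58 cells) was led by Dcn, Vtn, Rgs5, Apod, Ptgds and Myl9, with pericyte genes at a summed 3554 CPM, endothelial genes of the rule at 2894, and 41 of its 58 cells carrying genes of other cell types. Cluster 7 (41 cells) was led by hemoglobin genes, with Hbb-bs at 158654 CPM against 862 in the other 2809 cells, and Cldn5 at 3503 CPM. Cluster 8 (27 cells) had a median of 1276 UMIs, was led by Nadk, Rrm2b and Cfdp1, and was left unnamed. A doublet caller marked 1 of 4947 barcodes (0.0202%), too few to have worked, so doublets were not removed, and their part in cluster 6 was not tested.

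Open chromatin in adult brain endothelial nuclei gave a separate readout of the same genes. A gene counted as having a peak where 1 of the authors' peaks lay within 500 bp of an annotated start in both brain lists (38465 and 45094 peaks). Of 16418 protein-coding genes matched to RefSeq, 9358 (57%) had one. Of the 500 of these matched genes with the highest adult level, 476 did (95.2%; 92.9 to 96.9), as did 8571 of 10788 other genes with a UMI (79.4%) and 311 of 5130 with none (6.06%). The same 500 genes had a peak for 90.6% in whole-brain nuclei, 92.2% in retina, 90.2% in heart, 88.8% in liver, 87.8% in kidney and 87.6% in lung endothelial lists. In whole-brain nuclei 86.1% of the other genes with a UMI had a peak, 16.5% of those with none and 64.5% of all. Each of these was above the share in the brain endothelial lists. Peak lists differ in number and depth, and the shares carry no test. Above 10 CPM the share in the brain endothelial lists was flat, at 95.7% for genes of 10 to 100 CPM. It was 96.2% for those of 100 to 1000.

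The share was close for genes higher and lower in the adult cells. Only protein-coding genes matched to RefSeq are counted here. Of those higher in the adult than in the P8 cells, 90% (629 of 699) had a brain peak at a start. Of those lower in the adult cells 89.9% (456 of 507) did, against 97.4% of those between. In the same order the shares were 88.7%, 91.7% and 97.5% in whole-brain nuclei and 82.7%, 85.2% and 95.6% in both heart lists.

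A few listed genes had a start peak in brain but not in the peripheral organs. The starts of Slco1c1, Mfsd2a, Lrp8, Itm2a, Spock2, Foxf2 and Foxl2 had a peak in both brain endothelial lists and in none of the heart, kidney, liver and lung lists. All 7 also had one in whole-brain nuclei and in retina. Lrp8 and Foxl2 had it in 1 of 2 retina lists and the other 5 in both. How many of all genes show this pattern was not counted, so it is not known whether listed genes show it more often. Of all 16418 genes, 57% had a peak in both brain lists, 52.1% in both liver, 51.1% in both heart, 50% in both kidney and 46.3% in both lung lists. At Slco1a4, whose promoter is printed above, the authors' peaks had fold enrichments of 4.57 and 3.66 (−log10 q 9.37 and 7.27) in the brain lists. A peak was also listed there in 1 of 2 retina lists and 1 of 2 kidney lists, and none was listed in heart, liver, lung or whole-brain nuclei. Abcb1a had brain peaks of 3.85 and 3.64, peaks in both retina lists, 1 heart list and 1 lung list, and none in kidney or liver. Slc2a1 (4.07 and 4.02) and Cldn5 (3.56 and 3.27) had a peak in every endothelial list of the 6 organs. Slc22a8, Slc38a5 and Nkd1 had none in brain or any other organ, although they stood at 378, 233 and 130 CPM in the cells.

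**Figure D5:**
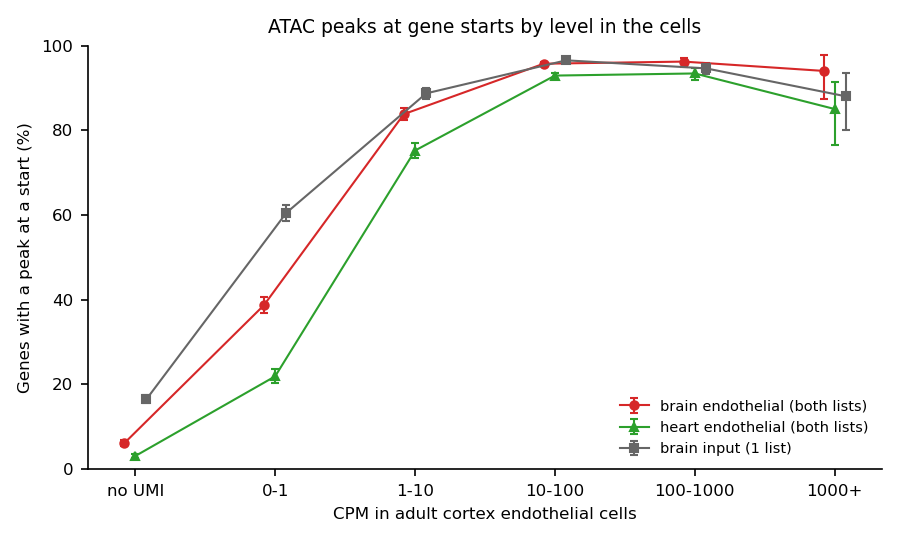
Share of protein-coding genes with an ATAC peak within 500 bp of a start, by level in the adult cortex endothelial cells, in both brain endothelial lists (red), both heart endothelial lists (green) and the whole-brain list (grey), with exact binomial intervals. In brain the share rises from 6.06% for genes with no UMI to 95.7% at 10 to 100 CPM and then stays level.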

How the data were processed

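Single-cell libraries were deposited by the authors as UMI count matrices, made with Cell Ranger 4.0.0 per the file headers, and mm10 and Seurat 4.0.4 stand in the submitters' processing notes; which of these steps shaped the matrices is not given in the sources used here. ATAC peaks were deposited as lists called per preparation with MACS2 2.1.2, per the file headers, with a fold enrichment ratio and a −log10 q for each peak by the authors. Total counts in the cells were 18395667 UMIs in the adult and 51322052 in the P8 library, and 17944260 and 23918730 tags lay behind the brain peak lists.

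The members and gene lists were chosen with earlier results of these data known. From the counts, summed levels in CPM, ratios with 0.5 UMI added, variation beyond counting noise, thinned cells (2000 UMIs), ranges by 3 or more marker genes and clusters (scanpy 1.11.5; 2000 variable genes, 20 components, 15 neighbours, resolution 0.5) were computed with Python 3.11.15. There is 1 library a group, so no test was made. Named genes are up to 6 of each list by adult level, the 20 most abundant, the 20 most variable, the 15 largest ratios each way at 100 CPM or more and each cluster's 10 leading genes; other list members, and the peak genes named, were chosen after their values were seen. Of 27998 genes, 18753 matched the RefSeq table used here, by Ensembl identifier or, failing that, by symbol. The CCAAT and TATAAA motifs were added after reading the sequences. Alternatives covered filters, depth, thresholds, scaling and left-out cells or peak lists. Results for a few of the genes these rules pick are not reported here.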

Additional observations from a re-analysis of the deposited data

Results flagged for a closer look

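Slco1a4, the bile acid and steroid conjugate carrier, differed in direction between the ages. In adult cells its level in arterial-marker over venous-marker cells was 0.619 (1302 and 2102 CPM), and at P8 it was 4.95 (866 CPM in arterial-marker cells). It was the 1 gene of 291 looked at that stood 1.5-fold or more apart in opposite directions at 100 CPM or more in both libraries. The 291 are listed genes and genes ranked high by level, variation or adult over P8 ratio. They include genes under 100 CPM, which could not be flagged. How many of all genes would pass was not counted. With a limit of 20 CPM, 6 more genes did so: Mt1 (0.504 in adult, 3.63 at P8), Ndrg1 (0.493, 3.02), Paqr5 (0.522, 1.5), Slc5a6 (0.396, 1.52), Bcl6b (1.91, 0.604) and Sema6d (3.48, 0.662). Under 6 other cuts, chosen after seeing the data, the adult ratio was 0.512 to 0.684 and the P8 ratio 4.41 to 5.36. The genes of the cut differ in level between the libraries, so the ranges may hold different cells at each age. With 1 library at each age, the difference was not tested.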

How the results depend on the processing

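No paired analysis was possible because each single-cell group is 1 library and no result comes from a test. With a mitochondrial share of at most 5%, 1387 cells were left. Variable genes were 501 of 3406 (14.7%) in cells thinned to 2000 UMIs, 381 of 6842 (5.57%) at a value of at least 1, and 181 of 2328 (7.77%) with at least 0.5 UMI a cell. Arterial-marker cells were 41.4% with at least 2 genes, 22.1% with at least 4, 34.8% unthinned and 20.9% thinned to 1000 UMIs; venous-marker cells were 31.7%, 12.8%, 34.6% and 9.31%. Chosen after seeing the data, leaving out Crip1 and Tm4sf1 gave 17.9% arterial-marker cells, and leaving out Vcam1 and Vwf gave 17.6% venous-marker cells. Among 2163 genes of at least 100 CPM, 366 (16.9%) were higher and 260 (12%) lower in adult than P8 cells. At a ratio of 3 these were 469 and 330 of 6751. Also added later, totals without ribosomal, mitochondrial and hemoglobin genes and Malat1 gave 874 higher and 895 lower of 7494. The higher share of calls went from 56.3% to 49.4%, over a larger set of genes. At −log10 q of at least 5, 84.6% of the 500 most abundant matched genes had a start peak; with either brain list alone the share was 95.2% to 96.4%. Clusters numbered 5 at resolution 0.3 and 13 at 1. Without cells carrying other types' genes, 884 genes were higher and 669 lower; leaving out the 3 smallest clusters gave 910 and 687. Of 139 named genes, 20 no longer passed at a ratio of 3, 5 by the mean of cells, 4 when thinned, and 2 or fewer in the other settings. Depth limits genes near 0.163 CPM in adult cells.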
